A study of Mus musculus with 6 samples.

Results

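The 50 genes described here act in G2 and mitosis. They were chosen by name, as the rows whose gene symbol equals 1 of 50 listed regulators of mitotic entry, spindle, kinetochore, chromosome and cytokinesis genes, out of 22913 genes with at least 1 read. Each of the 50 was found once in the table of read counts and once in the table of FPKM, and all 50 passed the filter on low counts, as did 12827 genes in all. The libraries are polyadenylated RNA of HL-1, an established mouse line that traces back to atrial cardiomyocytes. In 3 libraries (HSPA1A replicates 1 to 3) the cells had received an HSPA1A overexpression plasmid, which the labels call human, and in 3 (Ctrl replicates 1 to 3) a control plasmid. The HSPA1A plasmid was delivered with a lipid reagent (Lipofectamine), and cells were harvested 48 h later. The labels state neither the share of cells that took up a plasmid nor whether each replicate was a culture of its own. A p-value here therefore measures the spread between libraries, part or all of which may be technical.

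In the cell cycle, mitotic entry is driven by the kinase CDK1 bound to A- and B-type cyclins, which CDC25 phosphatases activate. The spindle checkpoint then holds back the anaphase-promoting complex until every chromosome is attached, after which CDC20 and UBE2C direct the destruction of cyclin B and securin, and separase cuts the cohesin that joins sister chromatids. Many of these genes are transcribed together late in the cycle, when the MuvB complex with B-MYB and FOXM1 acts at a promoter element called the CHR and the factor NF-Y binds CCAAT boxes. Heart muscle cells in adult animals rarely divide, while HL-1 cells proliferate in culture.

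Promoters of 7 of the genes are shown first, because many of the 50 genes are known for shared control. The part of these motifs in the spread between libraries was not tested. Each line runs 5′ to 3′ from 120 bases before to 30 bases after a RefSeq transcript start on GRCm38.p6. Capitals mark CCAAT boxes (CCAAT, or ATTGG on the other strand) and CHR-type hexamers (TTTGAA or TTCGAA, or TTCAAA on the other strand). Kif23, Cdc25b and Espl1 were the genes with no overlap between HSPA1A and Ctrl libraries, and Spc25 had the highest fitted log2 fold change. Cdk1, Ccnb2 and Cdc20 were added without a fixed rule, as mitosis genes whose groups overlapped.
Kif23: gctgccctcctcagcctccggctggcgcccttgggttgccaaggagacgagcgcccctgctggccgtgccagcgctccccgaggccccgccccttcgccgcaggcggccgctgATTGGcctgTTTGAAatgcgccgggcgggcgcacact
Cdc25b: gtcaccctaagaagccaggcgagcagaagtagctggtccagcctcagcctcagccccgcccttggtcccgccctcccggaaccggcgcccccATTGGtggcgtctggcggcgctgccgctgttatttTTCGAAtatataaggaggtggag
Espl1: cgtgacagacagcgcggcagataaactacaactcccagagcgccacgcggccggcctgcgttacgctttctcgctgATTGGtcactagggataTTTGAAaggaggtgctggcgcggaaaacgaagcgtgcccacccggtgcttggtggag
Spc25: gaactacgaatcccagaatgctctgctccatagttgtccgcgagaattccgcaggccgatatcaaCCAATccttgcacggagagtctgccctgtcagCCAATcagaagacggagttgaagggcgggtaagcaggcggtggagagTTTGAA
Cdk1: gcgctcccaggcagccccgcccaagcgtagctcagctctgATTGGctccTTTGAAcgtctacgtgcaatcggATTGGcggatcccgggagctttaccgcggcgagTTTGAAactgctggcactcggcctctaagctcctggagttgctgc
Ccnb2: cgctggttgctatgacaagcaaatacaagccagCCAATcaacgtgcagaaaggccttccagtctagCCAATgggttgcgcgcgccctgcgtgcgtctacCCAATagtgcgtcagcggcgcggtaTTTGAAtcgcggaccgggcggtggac
Cdc20: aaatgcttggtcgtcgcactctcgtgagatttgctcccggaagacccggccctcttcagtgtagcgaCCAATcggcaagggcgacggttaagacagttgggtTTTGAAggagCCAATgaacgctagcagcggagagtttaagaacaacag
The windows lie at chr9:61946770-61946919, minus strand (Kif23), chr2:131186828-131186977, plus strand (Cdc25b), chr15:102296173-102296322, plus strand (Espl1), chr2:69206184-69206333, minus strand (Spc25), chr10:69352883-69353032, minus strand (Cdk1), chr9:70421525-70421674, minus strand (Ccnb2) and chr4:118437314-118437463, minus strand (Cdc20). All 7 hold at least 1 letter match to each motif, which some other genes of the 50 lacked, as given below. Counting from the transcript start, with negative positions before it, the CHR match begins at 3 in Kif23, 8 in Cdc25b, -27 in Espl1, 25 in Spc25, 5 in Ccnb2 and -18 in Cdc20, and Cdk1 has matches at -71 and -15.

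Of the 50 genes, 42 had a promoter in the RefSeq table, taken as the first one listed for the gene and spanning 250 bases before to 50 after the start. A CCAAT box was found in 33 of the 42 (78.6%), against 37.4% of all 32851 promoters of the same length. This background takes every promoter listed, so a gene with more than 1 listed enters it more than once. A CHR-type hexamer was found in 34 (81%), against 19.2% of all promoters, and both motifs in 30 (71.4%), against 7.52%. Both motifs were searched on both strands, and a match of one can share at most 1 base with a match of the other. Among the exceptions, the promoters of Mad2l1, Pttg1, Birc5, Nuf2 and Nusap1 held neither string of letters in this window. Those of Ccnb1, Nek2 and Cenpe held a CCAAT box but no CHR-type hexamer. Those of Ndc80, Kif20b, Kif2c and Anln held a CHR-type hexamer but no CCAAT box. The 30 genes with both motifs had a median fitted log2 fold change (HSPA1A over Ctrl) of -0.016, and the 12 without both had 0.032.

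The G2 and mitosis genes were well covered. Their counts ran from 347 reads, the lowest value of any of them in any library, to 6278 reads, and total counts per library from 23849656 to 26897086. Length-scaled levels in the deposited FPKM table are the ones to compare between genes. The highest mean over all 6 libraries was that of Ube2c, the ubiquitin-conjugating enzyme of the anaphase-promoting complex, at 67.4 ± 8.7 FPKM in HSPA1A and 70.4 ± 2.4 FPKM in Ctrl libraries (SD, n = 3 each). Close to it were Bub3, a spindle checkpoint subunit, at 67.8 ± 3.4 FPKM in HSPA1A and 67.3 ± 2.2 FPKM in Ctrl libraries, and Racgap1, a centralspindlin subunit, at 64.4 ± 6.2 FPKM in HSPA1A and 65.9 ± 3.4 FPKM in Ctrl libraries. These 3 levels lay within each other's spread. At the low end stood Espl1, which encodes separase, at 2.14 ± 0.12 FPKM in HSPA1A and 2.47 ± 0.08 FPKM in Ctrl libraries. The proliferation marker Mki67 lay at 5.6 ± 0.78 FPKM in HSPA1A and 6.01 ± 0.49 FPKM in Ctrl libraries, so its level per length was well below that of Cdk1, at 44.7 ± 4.0 FPKM in HSPA1A and 46.3 ± 1.8 FPKM in Ctrl libraries.

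**Figure D1:**
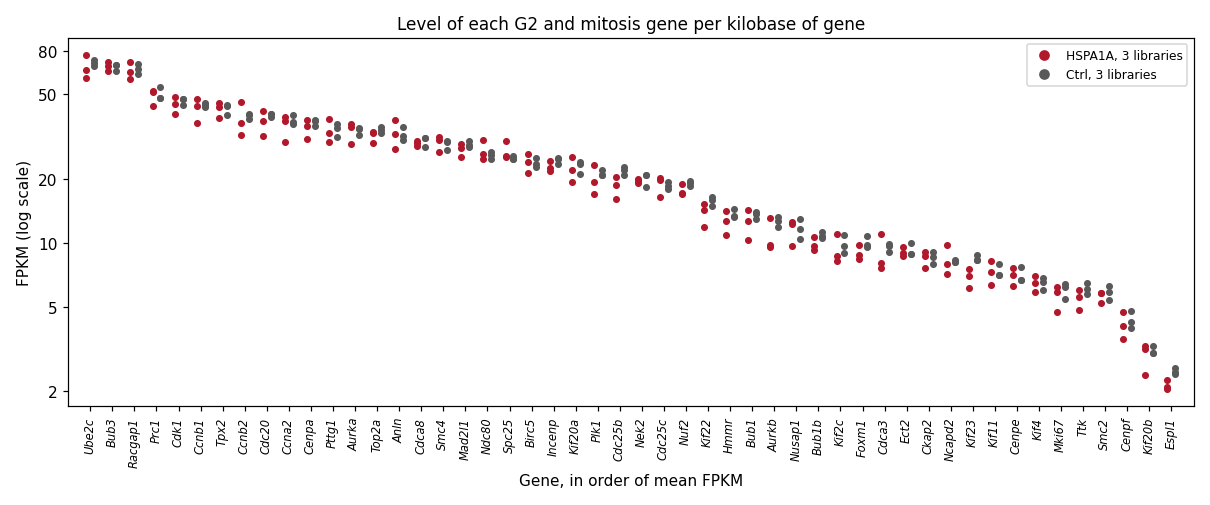
FPKM of each of the 50 G2 and mitosis genes on a log axis, with 1 point per library, HSPA1A libraries left (red) and Ctrl libraries right (grey), in order of the mean level. Levels run from 59.9 to 76.9 FPKM over the libraries for Ube2c down to 2.04 to 2.56 FPKM for Espl1, and the points of both groups lie among each other for nearly all genes.

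Labels were checked in a few genes. Mouse Hspa1a had 17, 20 and 11 reads in HSPA1A replicates 1 to 3 and 10, 17 and 11 reads in Ctrl replicates 1 to 3, and since reads were counted on mouse genes this does not check a human transcript. Of 14 cardiac markers 11 were listed and 6 reached 1 CPM, among them Des, Atp2a2, Gata4, Tnnt2 and Nkx2-5. The sarcomere gene Tnnt2 averaged 40.6 CPM and the calcium pump gene Atp2a2 480 CPM over all 6 libraries, while other listed genes of the sarcomere and of calcium handling were close to 0, with 3 reads in all for Actc1, 7 for Tnni3, 11 for Ryr2 and 1 for Actn2. The summed cardiac list lay between 1065 and 1212 CPM in HSPA1A and between 1182 and 1236 CPM in Ctrl libraries. Des, at 614 CPM on average, and Atp2a2 made up most of that sum. Not listed were Myl7, Hand2 and Pln, and Tbx5 had 19 reads in all. Of 6 listed fibroblast markers 5 reached 1 CPM, and the list summed to between 786 and 927 CPM in HSPA1A and between 850 and 886 CPM in Ctrl libraries. Endothelial markers stayed under 1 CPM in sum, and macrophage markers summed to between 4.36 and 7.42 CPM in HSPA1A and between 3.52 and 5.49 CPM in Ctrl libraries, of which Cd68 made up most while Ptprc had 2 reads in all. The part of these differences in the results below was not tested.

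HSPA1A replicate 2 stood apart from its group. Over all tested genes, the chi-square per degree of freedom between its counts and those of HSPA1A replicates 1 and 3 was 28.1 and 23.7, against 8.82, 11.8 and 10.3 between it and Ctrl replicates 1 to 3. HSPA1A replicates 1 and 3 had 7.86 between them, and 16.2 to 25.7 against the Ctrl libraries. The measure uses raw counts, so genes with many reads weigh most in it. Among them is the noncoding transcript Yam1, with 2.70% of counts in HSPA1A replicate 1 and 1.18% in Ctrl replicate 2. Its part in these values was not tested. By this measure the library labelled HSPA1A replicate 2 was closer to each Ctrl library than to either other HSPA1A library. Calls, the bounds of the intervals and the median log2 fold change of the G2 and mitosis genes are therefore also given without it. So are calls among other cell cycle genes. HSPA1A replicate 2 was singled out from these same data as closer to Ctrl, so calls made without it give no independent support. Most other results are given only with all 3 HSPA1A libraries, among them fold changes by role, overlap of groups and counts at an unadjusted p.

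None of the 50 genes was called in the comparison of all 3 HSPA1A with the 3 Ctrl libraries, and 4 were called without HSPA1A replicate 2, a fit that called 10.2% of all tested genes. The test was the quasi-likelihood test of edgeR, adjusted by Benjamini-Hochberg over 12827 genes with a threshold of 0.05. It called 0.179% of all tested genes, 3 higher (0.0234%) and 20 lower (0.156%). DESeq2 also called 0 of the 50, with 0.499% of all genes called and 2 of the 50 at an unadjusted p under 0.05, where it had 5.99% of all genes. In the edgeR fit 2 of the 50 had an unadjusted p under 0.05, Cdc25b and Kif23, both lower. All tested genes gave 8.59% at that level, 4.26% lower and 4.33% higher. The lowest adjusted p among the 50 was 0.434. Fitted log2 fold changes ran from -0.24 to 0.17, with 25 above 0 (50%, against 51% of all tested genes) and 25 below, and a median of -0.00023 against 0.0029 over all tested genes. In bulk RNA, the number of cells in G2 and mitosis and the level of these transcripts per cell cannot be told apart.

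The data were tight enough to bound the difference between the HSPA1A and Ctrl libraries for each gene taken singly. The 95% interval of every one of the 50 lay inside a 1.5-fold change in either direction, as it did for 80.4% of all tested genes. At the median of the 50 the interval reached 0.17 on the log2 scale to either side. The outermost bounds were 0.754-fold for Kif23 and 1.27-fold for Spc25. Without HSPA1A replicate 2 all 50 intervals again lay inside 1.5-fold, against 77.9% of all tested genes, with outermost bounds of 0.731-fold for Aurkb and 1.30-fold for Spc25. Standard errors of the log2 fold changes ran from 0.054 to 0.11. These intervals do not show that smaller differences are absent. Nor do they bound the change within cells that took up the plasmid, whose share the labels do not state.

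**Figure D2:**
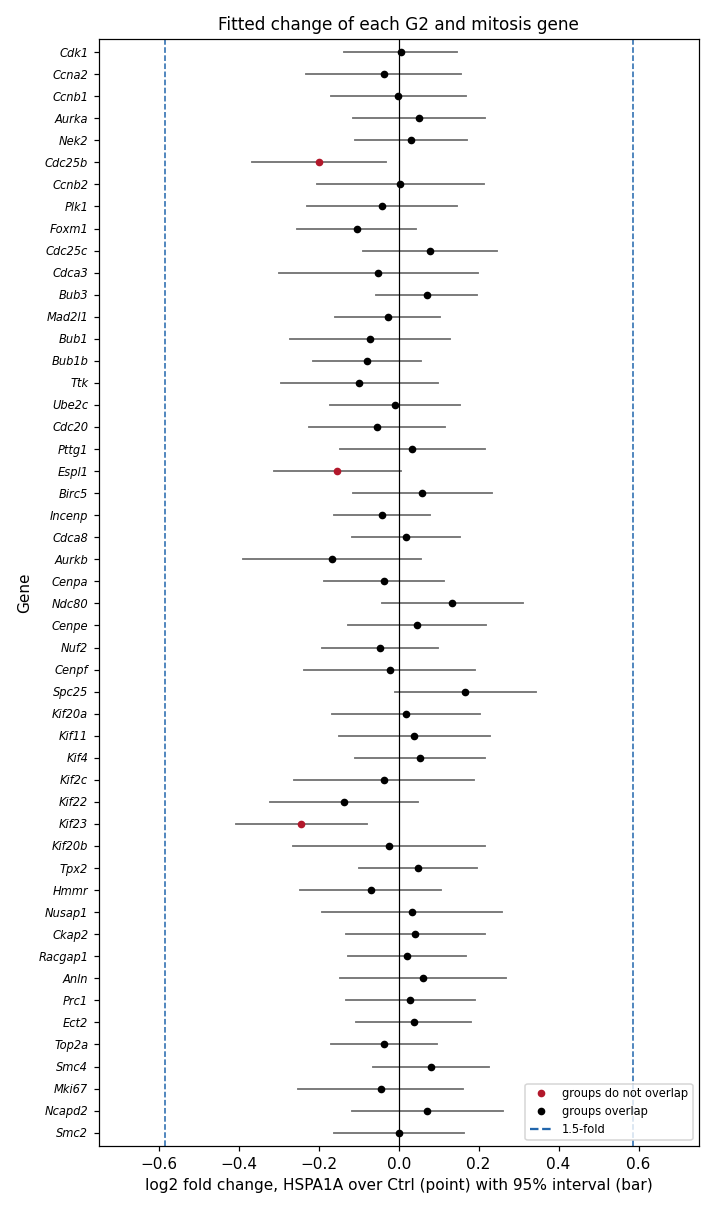
Fitted log2 fold change (HSPA1A over Ctrl, point) with its 95% interval (bar) for each of the 50 genes, in order of role. Red points mark Cdc25b, Espl1 and Kif23, whose groups do not overlap, and dashed lines mark a 1.5-fold change, which no interval reaches.

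The largest fitted difference was that of Kif23 (ENSMUSG00000032254.9, chromosome 9, minus strand, GRCm38 positions 61915905 to 61946774), a kinesin that bundles microtubules of the central spindle in cytokinesis. Kif23 had 23.3, 27.4 and 26.6 CPM in HSPA1A replicates 1 to 3, against 32.1, 29.7 and 29.8 CPM in Ctrl replicates 1 to 3. All 3 HSPA1A libraries were below all 3 Ctrl libraries, with replicate 1 the lowest. The log2 fold change was -0.24 ± 0.07 (SE), with a 95% interval from -0.41 to -0.080, and it did not pass the test (adjusted p = 0.434, edgeR's quasi-likelihood test). Its partner in the centralspindlin complex, Racgap1, had a log2 fold change of 0.021, at 201, 232 and 218 CPM in HSPA1A and 227, 201 and 213 CPM in Ctrl libraries, with groups that overlapped.

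Cdc25b (ENSMUSG00000027330.14, chromosome 2, plus strand, positions 131186949 to 131198497) encodes a phosphatase that activates cyclin-CDK1 at the start of mitosis. It had 56.1, 67.9 and 65.9 CPM in HSPA1A libraries and 76.4, 68.7 and 73.0 CPM in Ctrl libraries, so the groups did not overlap but HSPA1A replicate 2 and Ctrl replicate 2 lay close together. Its log2 fold change was -0.20 ± 0.08 (SE; adjusted p = 0.518, edgeR's quasi-likelihood test). An exon of Cdc25b overlaps one of Spef1 on the other strand. The related phosphatase gene Cdc25c had a log2 fold change of 0.078, with an interval from -0.089 to 0.25.

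Espl1 (ENSMUSG00000058290.3, chromosome 15, plus strand, positions 102296266 to 102324357), the separase gene, had 15.1, 16.0 and 15.6 CPM in HSPA1A libraries and 17.4, 17.8 and 16.9 CPM in Ctrl libraries. Again every HSPA1A library was below every Ctrl library, and the log2 fold change of -0.15 ± 0.07 (SE) did not pass the test (adjusted p = 0.595, edgeR's quasi-likelihood test). Kif23, Cdc25b and Espl1 were the 3 of 50 genes whose groups did not overlap, all with HSPA1A lower, and this held with size factors of DESeq2, with library totals alone and in FPKM. Among all tested genes 14.5% had groups that did not overlap, with HSPA1A lower in 7.17% and higher in 7.3%. The 3 of 50 lower (6%) and 0 of 50 higher are thus near or under the background.

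Spc25 (ENSMUSG00000005233.14, chromosome 2, minus strand, positions 69193895 to 69206194), a subunit of the NDC80 complex that ties kinetochores to microtubules, lay at the other end. It had 45.04, 43.1 and 53.7 CPM in HSPA1A libraries and 43.6, 41.4 and 41.3 CPM in Ctrl libraries. HSPA1A replicate 3 was far above the rest, and replicate 2 lay within the Ctrl range. The log2 fold change was 0.17 ± 0.08 (SE; adjusted p = 0.605, edgeR's quasi-likelihood test). Ndc80, named for the complex, was next at 0.13, with 61.2, 61.6 and 74.9 CPM in HSPA1A and 60.8, 57.2 and 62.0 CPM in Ctrl libraries, and here too replicate 3 stood apart. The gene of another subunit, Nuf2, had a log2 fold change of -0.046.

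**Figure D3:**
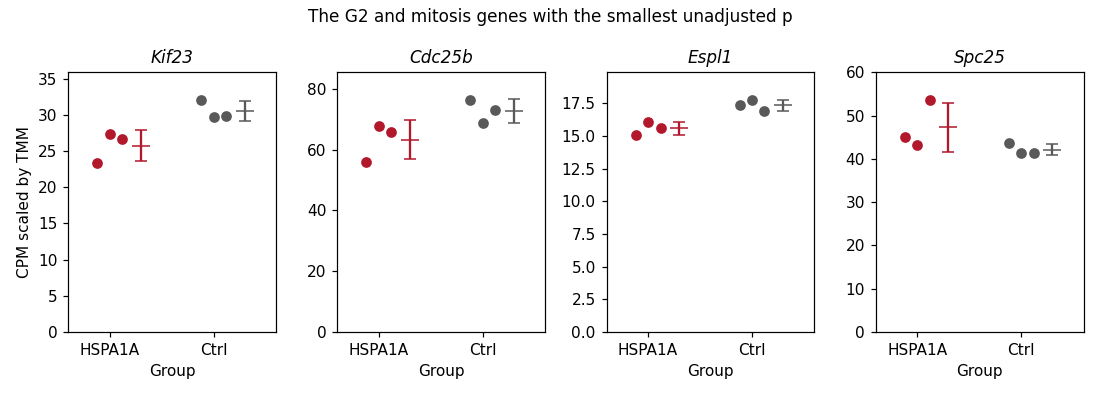
CPM scaled by TMM in each HSPA1A (red) and Ctrl (grey) library for Kif23, Cdc25b, Espl1 and Spc25, the genes with the smallest unadjusted p, with mean and SD as the bar at the side (n = 3 each). Kif23, Cdc25b and Espl1 are lower in all HSPA1A libraries, Spc25 stands at 53.7 CPM in HSPA1A replicate 3, and no gene passed the test.

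Among the 11 mitotic entry regulators, fitted log2 fold changes ran from -0.20 to 0.078, with 5 above 0. Cdk1, the mitotic kinase, had 135, 154 and 151 CPM in HSPA1A libraries and 151, 138 and 149 CPM in Ctrl libraries, a log2 fold change of 0.0048 with an interval from -0.14 to 0.15. Its partner cyclin Ccnb1 had 102, 126 and 123 CPM in HSPA1A and 119, 113 and 119 CPM in Ctrl libraries. In both genes HSPA1A replicate 1 was the lowest library and HSPA1A replicate 2 the highest. Plk1, a kinase of mitotic entry and spindle assembly, showed the same order at its ends, with 41.9, 54.3 and 47.6 CPM in HSPA1A and 51.6, 48.1 and 48.4 CPM in Ctrl libraries. Foxm1, a transcription factor of late cell cycle genes, had 41.4, 46.0 and 43.2 CPM in HSPA1A and 50.7, 45.2 and 44.6 CPM in Ctrl libraries, with a log2 fold change of -0.10 (interval -0.25 to 0.044).

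The 5 spindle checkpoint genes had a median log2 fold change of -0.071. Bub3 had the highest FPKM of them, and lay at 148, 148 and 164 CPM in HSPA1A and 142, 147 and 149 CPM in Ctrl libraries. Bub1b, the BUBR1 gene, had the smallest p of this class, at 37.7, 41.8 and 39.9 CPM in HSPA1A and 44.1, 40.4 and 41.7 CPM in Ctrl libraries (log2 fold change -0.080, interval -0.21 to 0.056). In both genes the groups overlapped. Of the 4 anaphase and ubiquitin genes, Ube2c had 174, 213 and 190 CPM in HSPA1A and 202, 185 and 194 CPM in Ctrl libraries, again with HSPA1A replicates 1 and 2 at the ends.

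The chromosomal passenger complex corrects wrong attachments of chromosomes, and the fitted values of its 4 genes differed in sign. Aurkb, its kinase, had 21.2, 27.2 and 20.9 CPM in HSPA1A and 24.7, 26.0 and 27.4 CPM in Ctrl libraries. HSPA1A replicates 1 and 3 were below all Ctrl libraries and replicate 2 was among them, with a log2 fold change of -0.17 ± 0.10 (SE). Birc5, the survivin gene, had 81.0, 86.8 and 100 CPM in HSPA1A and 91.1, 81.2 and 84.7 CPM in Ctrl libraries, a log2 fold change of 0.059. The scaffold gene Incenp had a log2 fold change of -0.043 and the borealin gene Cdca8 one of 0.017. Cenpa, the centromeric histone gene, had the highest FPKM of the 6 kinetochore genes and lay at 56.4, 65.9 and 65.4 CPM in HSPA1A and 66.2, 61.2 and 65.2 CPM in Ctrl libraries.

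The other 6 mitotic kinesin genes beside Kif23 lay between -0.14, for the chromokinesin gene Kif22, and 0.053, for Kif4. Kif20a, a kinesin of the central spindle and the gene of the class with the highest FPKM, had 82.0, 103 and 93.4 CPM in HSPA1A and 97.0, 84.1 and 93.7 CPM in Ctrl libraries. For spindle assembly, Tpx2, the activator of Aurora A on the spindle, had 188, 213 and 212 CPM in HSPA1A and 205, 184 and 204 CPM in Ctrl libraries. Hmmr, whose product binds spindle microtubules, had 47.3, 58.3 and 55.3 CPM in HSPA1A and 60.2, 54.1 and 54.6 CPM in Ctrl libraries. In these 3 genes HSPA1A replicate 1 lay below the other HSPA1A libraries. The 4 genes classed under cytokinesis, which leave out Kif23, had log2 fold changes from 0.021 to 0.061. Each had an interval that included 0, so the shared sign gives no direction, and 51% of all tested genes were positive. Anln, the anillin gene and the highest of them, had 167, 218 and 197 CPM in HSPA1A and 204, 173 and 182 CPM in Ctrl libraries.

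Among the 5 genes of chromosome structure, Top2a, the DNA topoisomerase of replicating and mitotic cells, had 172, 184 and 193 CPM in HSPA1A and 196, 179 and 187 CPM in Ctrl libraries. Smc4, a condensin subunit gene, had 130, 145 and 147 CPM in HSPA1A and 139, 124 and 136 CPM in Ctrl libraries, with a log2 fold change of 0.081 (interval -0.064 to 0.22). Mki67 had 53.2, 66.8 and 66.1 CPM in HSPA1A and 69.0, 57.6 and 65.5 CPM in Ctrl libraries. The groups overlapped in all 3, and Mki67 had a log2 fold change of -0.045 (interval -0.25 to 0.16).

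The spread among libraries was shared by most of the genes. Set against the 3 Ctrl libraries, HSPA1A replicate 1 was below the lowest Ctrl library in 37 of the 50 genes (74%), where 32.4% of all tested genes were, above the highest in 2, where 33.3% were, and within the Ctrl range in 11, where 34.3% were. HSPA1A replicate 2 was above the highest Ctrl library in 19 genes (38%), against 31.4% of all tested genes, below the lowest in 4, against 30.2%, and within the range in 27, against 38.4%. HSPA1A replicate 3 was above in 12 genes, against 33.6% of all tested genes, below in 9, against 33.5%, and within the Ctrl range in 29 (58%), against 32.9%. HSPA1A replicate 1 was the lowest of all 6 libraries in 35 of the 50 genes, against 18.6% of all tested genes. These counts describe single libraries and carry no test of the conditions, since 1 library is 1 sample and the genes share it.

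Controls varied in the same shared way. Ctrl replicate 1 was the highest of the 3 Ctrl libraries in 42 of the 50 genes (84%), against 35% of all tested genes, and Ctrl replicate 2 was the lowest in 42 (84%), against 35.5%. Summed over the 50 genes, the level was 3426, 3968 and 3896 CPM in HSPA1A replicates 1 to 3 and 3942, 3558 and 3759 CPM in Ctrl replicates 1 to 3. As a median over the genes, the deviation from the mean of the Ctrl libraries in log2 CPM was -0.14, 0.069 and 0.043 in HSPA1A replicates 1 to 3 and 0.069, -0.071 and 0.0066 in Ctrl replicates 1 to 3. Over all tested genes these medians lay between -0.00065 and 0.0049, which TMM scaling brings near 0 by design. HSPA1A replicate 1 was thus below the range of the Ctrl libraries, while HSPA1A replicate 2 stood level with Ctrl replicate 1. The deviation of HSPA1A replicate 1 was negative under every scaling run, at -0.14 with DESeq2 size factors, -0.19 with library totals alone and -0.22 in FPKM. In that order, the medians over all tested genes in HSPA1A replicate 1 were 0.0025, -0.040 and -0.075. The deviation of HSPA1A replicate 3 changed sign with the scaling, to -0.015 with library totals alone and -0.041 in FPKM, where the medians over all tested genes in that library were -0.053 and -0.079.

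**Figure D4:**
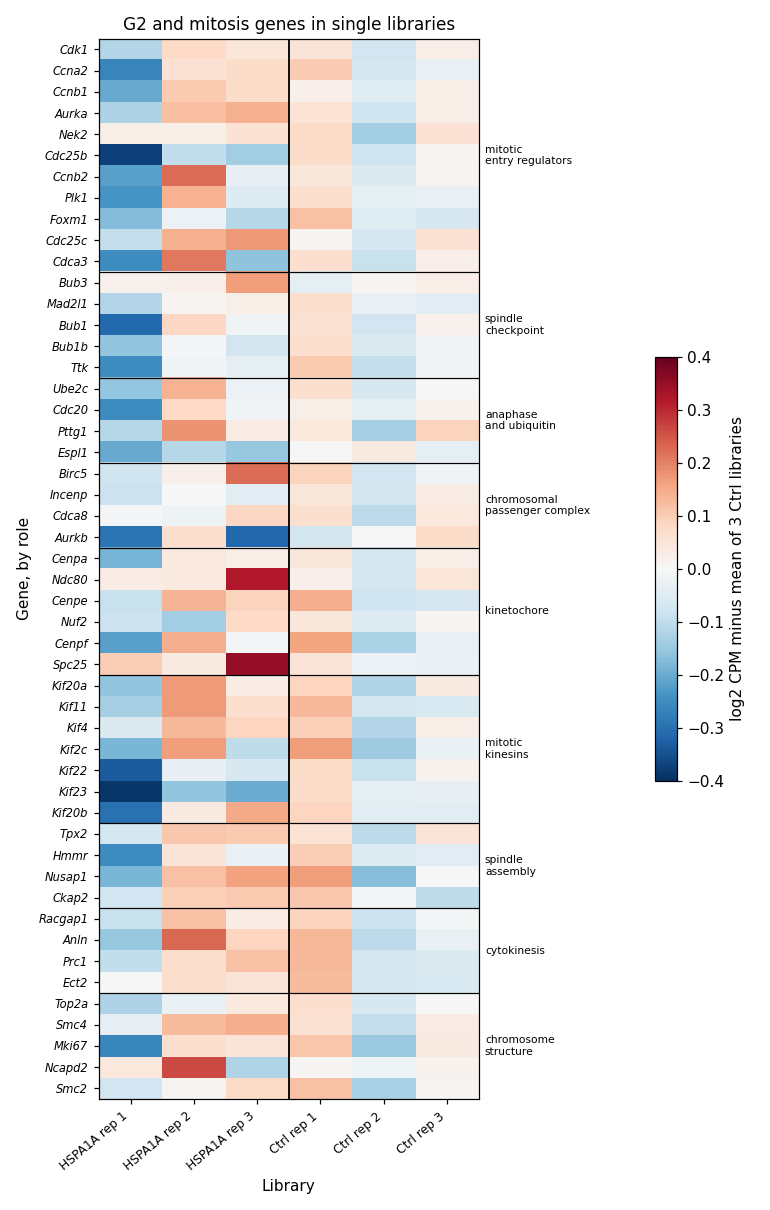
Log2 CPM minus the mean of the 3 Ctrl libraries (colour, blue lower and red higher) for each of the 50 genes (down, by role) in each library (across, HSPA1A left and Ctrl right). The column of HSPA1A replicate 1 is blue for 44 genes and that of Ctrl replicate 2 for 48, while Ctrl replicate 1 is red for nearly all, so the shared pattern runs across libraries within each group.

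By role, HSPA1A replicate 1 was below all Ctrl libraries in 10 of 11 mitotic entry regulators and 6 of 7 kinesin genes. The count was 4 of 5 for checkpoint genes and 3 of 4 each for anaphase, passenger complex and cytokinesis genes. It was 4 of 6 for kinetochore genes, 2 of 4 for spindle assembly and 2 of 5 for chromosome structure. Over all tested genes the share was 32.4%. These counts rest on few genes per role and on HSPA1A replicate 1 alone, so they do not set roles apart. The largest deviations in that library were those of Kif23 (-0.39) and Cdc25b (-0.37), and Spc25 was the highest there (0.098). HSPA1A replicate 1 also had the fewest total counts, 23849656, and the highest share of counts on the noncoding transcript Yam1, 2.70%, against 1.58% and 2.53% in HSPA1A replicates 2 and 3 and 1.18% to 1.86% in Ctrl libraries. In HSPA1A replicate 3 the median deviation of the G2 and mitosis genes was 0.043 by TMM scaling, -0.015 with library totals alone and -0.041 in FPKM. The part of depth or Yam1 in the result was not tested.

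Leaving out single libraries moved the median log2 fold change of the 50 genes to either side of 0. It was 0.061, with 40 genes positive, without HSPA1A replicate 1, and -0.043, with 16 positive, without HSPA1A replicate 2. Without Ctrl replicate 1 it was 0.040 and without Ctrl replicate 2 it was -0.041. Of the 50 genes 0 were called without Ctrl replicate 1, 2 or 3, where 0.108%, 0.0997% and 0.077% of all tested genes were called, and 0 without HSPA1A replicate 1 or 3, where 0.0994% and 0.107% were. With no filter on low counts it was also 0, against 0.895% of all genes. Without HSPA1A replicate 2 the count was 4, as Kif23, Cdc25b and Aurkb were called lower and Spc25 higher, with log2 fold changes of -0.29, -0.25, -0.30 and 0.23 and adjusted p-values of 0.0192, 0.0252, 0.0129 and 0.0403 (edgeR's quasi-likelihood test). That fit called 10.2% of all tested genes, 1323 in all, so 4 of 50 (8%) is under its background.

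Other genes of the cell cycle were read from 6 lists with 172 tested genes, of which edgeR and DESeq2 each called 0, and 9 (5.23%) had an unadjusted p under 0.05 by edgeR, against 8.59% of all tested genes. A list of 64 other mitosis genes had a median log2 fold change of -0.0045, with 30 positive. Its smallest p-values were those of Cenpk, a kinetochore gene at 15.0 ± 2.6 CPM in HSPA1A and 11.9 ± 0.8 CPM in Ctrl libraries (SD, n = 3 each), and Cks2, a CDK-binding subunit at 92.8 ± 6.9 CPM in HSPA1A and 82.5 ± 3.9 CPM in Ctrl libraries. For Depdc1b the values were 5.87 ± 0.47 CPM in HSPA1A and 7.16 ± 0.83 CPM in Ctrl libraries. HSPA1A replicate 1 was below all Ctrl libraries in 39 of these 64 genes (60.9%), against 32.4% of all tested genes. For the 17 subunits and regulators of the anaphase-promoting complex, which are present through much of the cell cycle, the median was -0.0045, and for 17 genes that brake or time mitotic entry it was 0.030. The smallest p of the entry list was that of Gadd45g, a stress-induced gene, at 43.7 ± 3.2 CPM in HSPA1A and 38.5 ± 2.0 CPM in Ctrl libraries. The MuvB, B-Myb and NF-Y list of 15 genes had a median of 0.031, with its smallest p for the repressor E2f4 at 38.6 ± 1.4 CPM in HSPA1A and 42.3 ± 0.9 CPM in Ctrl libraries. The 17 tested G1 genes had a median of -0.042. The CDK inhibitor Cdkn1a had the smallest p among them, at 320 ± 12 CPM in HSPA1A and 296 ± 13 CPM in Ctrl libraries (log2 fold change 0.11, adjusted p = 0.608 by edgeR's quasi-likelihood test). Cyclin D1 (Ccnd1) averaged 340 ± 8 CPM in HSPA1A and 361 ± 11 CPM in Ctrl libraries.

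DNA replication genes, which act in the preceding S phase, had another order of libraries. Their median deviation from the Ctrl mean in log2 CPM, over 42 genes, was 0.13, -0.098 and 0.16 in HSPA1A replicates 1 to 3 and -0.020, 0.034 and 0.0033 in Ctrl replicates 1 to 3. In HSPA1A replicate 1 the replication genes were thus above and the mitosis genes below the Ctrl mean, in HSPA1A replicate 2 the reverse held, and in HSPA1A replicate 3 both were above it by TMM scaling. Ctrl replicates 1 and 2 also had opposite signs for the 2 lists. None of the 42 was called in the fit of all 6 libraries, where 32 were positive with a median log2 fold change of 0.066. In log2 FPKM with a pseudocount of 1 that median was 0.0018, where the median of all genes was -0.041. Mcm7, a helicase subunit gene, had the second smallest p of this list, at 86.5, 84.1 and 85.1 CPM in HSPA1A and 75.8, 76.6 and 78.3 CPM in Ctrl libraries, with groups that did not overlap and an adjusted p of 0.470 (edgeR's quasi-likelihood test). Without HSPA1A replicate 2, 12 of the 42 were called higher and 0 lower. That fit called 683 of 12955 tested genes higher and 640 lower, 10.2% in both directions together.

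**Figure D5:**
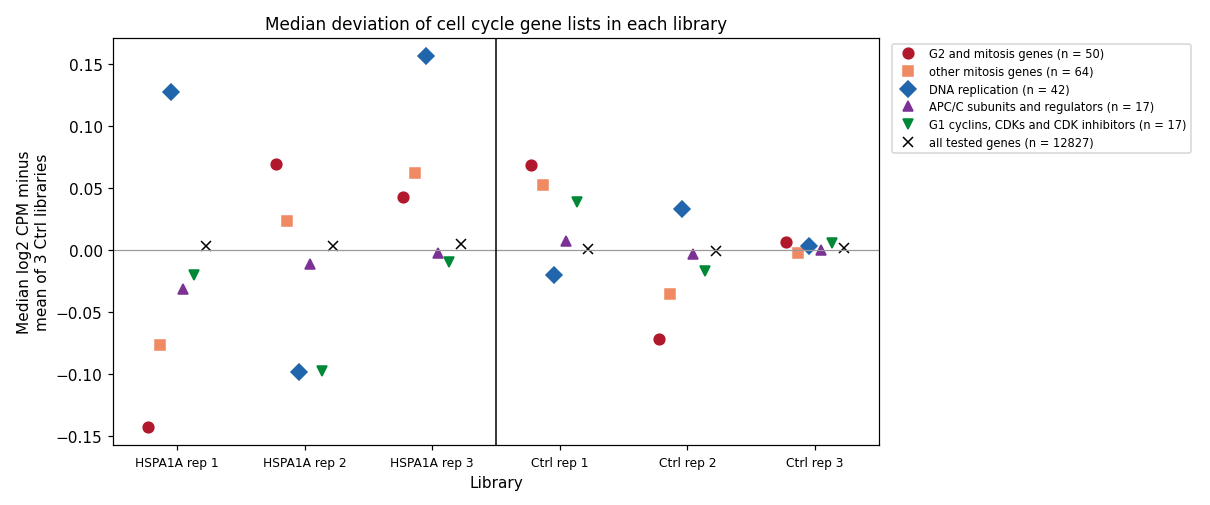
Median deviation of 5 cell cycle gene lists and of all tested genes from the mean of the 3 Ctrl libraries in log2 CPM, 1 symbol per list and library, HSPA1A libraries left and Ctrl libraries right. The G2 and mitosis genes (red circles) stand at -0.14 in HSPA1A replicate 1, where the DNA replication genes (blue diamonds) stand at 0.13. All tested genes (crosses) stay near 0, where TMM scaling brings them by design.

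Some reads could belong to overlapping genes. By GENCODE M21 on GRCm38, in which all 50 identifiers were found without regard to version, 13 of the 50 genes have an exon that overlaps one on the other strand, among them Cdc25b, Ube2c, Plk1, Prc1 and Kif20a. Another 3 have an exon that overlaps one of a gene on the same strand, which counting by strand would not separate: Foxm1 with Gm44596 and Tex52, Ncapd2 with Gm28967 and Scarna10, and Top2a with Gm23451. The labels name a stranded kit but not whether strand was used in counting. The pseudogene Ccnb2-ps had 12 reads over all 6 libraries, so few reads of Ccnb2 were counted there.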

How the data were processed

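Polyadenylated RNA went through a stranded library kit and paired-end sequencing, per the labels' protocols. GRCm38, TopHat2, edgeR and bcl2fastq are named in the submitters' processing notes. The read counter and the annotation release are unstated. The authors deposited whole read counts per gene, and FPKM, which scale by gene length and library size. Counts were normalised by TMM and tested with edgeR 4.0.16 (glmQLFit, glmQLFTest) under R 4.3.3, after filterByExpr (minimum count 10, minimum total 15), with Benjamini-Hochberg adjustment over 12827 genes. CPM values are scaled by TMM. The coefficient of biological variation came to 0.0688. Alternatives were DESeq2 1.42.0, other normalisations and filters, a replicate block, single libraries left out, and limma 3.58.1 on log2 FPKM with a pseudocount of 1 or 0.1. In simulated data with 200 changed genes, the edgeR fit recovered 40.5% of 1.25-fold, 75.5% of 1.5-fold and 90.5% of 2-fold changes. No simulated library was made to stand apart from its group. The genes and lists were chosen with earlier results of these data known. By rule, every library's value was printed for any called gene, for the gene with the highest mean CPM and that with the smallest p in each role, and for 6 core genes, and of each other list at most 4 genes with the smallest p were named. Ndc80 was added once its values were known. Promoters came from RefSeq and motif searches from exact string matches. Figures were drawn with matplotlib 3.10.9.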

Additional observations from a re-analysis of the deposited data

How the results depend on the processing

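The fit of all 6 libraries called 23 of all tested genes and 0 of the 50. Over all genes the count was 64 with DESeq2, 205 with no filter on low counts, 15 with log2 FPKM at either pseudocount, and from 10 to 1323 with single libraries left out. Among the 50 genes it was 0 under 13 of the 14 alternatives run and 4 without HSPA1A replicate 2 (range 0 to 4). Among the other cell cycle lists it was 18 of 172 (10.5%) without that library, where 10.2% of all tested genes were called (range 0 to 18 with single libraries left out). The replicate number as a block gave 16 calls over all genes and 0 among the 50, with a median log2 fold change of -0.0070. Same-numbered libraries deviated from their group means with correlations over genes of -0.094, 0.0064 and 0.079, and not every library correlated best with its own number. With 3 libraries in each group these values cannot decide whether same-numbered libraries were paired, and the labels do not state it. The median log2 fold change of the 50 ran from -0.066, in log2 FPKM with a pseudocount of 0.1, where 6 genes were positive and the median of all genes was -0.055, to 0.061 without HSPA1A replicate 1. The fitted sign changed under at least 1 alternative in 36 of the 50 genes, all within 0.071 of 0 in the fit of all libraries. Of the 22 genes printed by library under the rule, Espl1 alone moved by over 1 SD without being called, to -0.20 in log2 FPKM with a pseudocount of 0.1. The 1.5-fold bound on all 50 intervals held without each library in turn.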
